A study of Mus musculus with 6 samples.

Results

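Prdx2 and Gsta4 are antioxidant genes whose transcripts were each read by 1 replicated Agilent probe on arrays of RNA from small extracellular vesicles (sEVs) that mouse brown fat (sEV-BAT) or white fat (sEV-WAT) released. The members were chosen by name, as the probes A_51_P147207 for Prdx2 and A_51_P112223 for Gsta4, and they are 2 of 60823 probes. Each probe was printed on 10 spots of every array, which gave 60 spots a gene over 6 arrays. The files give the probes the transcript accessions NM_011563 and NM_010357, which RefSeq pairs with Prdx2 and Gsta4.

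Both groups came from C57BL/6 male mice, with an age of 6 to 8 weeks in the sample labels, and the labels name no treatment and no altered gene for either group. Brown fat was interscapular and white fat was inguinal. Minced fat was kept in stirred culture, the sEVs that it released were concentrated by filtration and ultracentrifugation, and each array held the total RNA of 1 pool of several mice. There were 3 arrays a group, given in the study as biological replicates. The study's methods describe 3 groups of mice for the arrays, so that pools of both fats can come from the same mice, but they do not say which arrays share a group. The labels describe vesicles of whole fat pads in culture, so sEVs from any cell type of the pad can be among them.

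Prdx2 encodes peroxiredoxin 2, a cytosolic enzyme that reduces hydrogen peroxide with a reactive cysteine and is recycled by thioredoxin. It is among the most abundant proteins of red blood cells and is present in most other cells. Gsta4 encodes glutathione S-transferase alpha 4, which joins glutathione to 4-hydroxynonenal, a reactive aldehyde formed when membrane lipids are oxidized, and its loss in fat cells has been linked to carbonylated proteins and mitochondrial damage. Brown fat is rich in mitochondria, which are a source of both peroxide and lipid oxidation.

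Both transcripts gave brighter spots on the sEV-BAT arrays, and neither passed the test of a difference between the groups once the arrays were quantile-normalized. Prdx2 had a log2 difference, sEV-BAT minus sEV-WAT, of 0.16 (standard error 0.13, limma, Benjamini-Hochberg adjusted p = 0.462 over all probes). Gsta4 had a log2 difference of 0.24 (standard error 0.16, limma adjusted p = 0.376). The study set its limits at a 2-fold change, up or down, with p no higher than 0.05 before adjustment. Neither gene met them, 0 of 2, against 2.27% of the 54443 probes tested (1.11% higher in sEV-BAT). By the adjusted limma p at 0.05 the count was again 0 of 2, against 7.61% of the probes (2.79% higher in sEV-BAT), and with slide or replicate number as a block 0 of the probes passed it. By the unadjusted p alone it was also 0 of 2, against 28.8% (11.5% higher in sEV-BAT). Gsta4 was dim, and its difference depended on the processing, from 0.03 to 1.27. That of Prdx2 was 0.16 with 2 normalizations, but 0.65 with none and -0.062 with slide as a block.

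The arrays themselves differed in brightness. Before normalization, the median probe had 81.3 to 92.1 scanner units where the RNA was from sEV-BAT but 57.1 to 58.5 where it was from sEV-WAT, and negative control spots had medians of 2.01 to 2.33 and 1.61 to 1.70. The scanner marked 0 spots as saturated. The sEV-WAT arrays shared a slide with sEV-BAT 1, and sEV-BAT 2 and 3 were on a second slide. The recorded scan date of sEV-WAT 2 differed from that of the other arrays. Of 50 marker genes in 8 lists, Il2 alone was among the replicated Agilent probes that RefSeq names. The lists covered red blood cells, brown fat cells, fat cells in general, macrophages, endothelial cells, stromal cells, skeletal muscle and lymphocytes. The other probes were not searched for markers. The fat type in the labels was therefore not checked against markers such as Ucp1, and the part of red blood cells in the Prdx2 signal was not tested. Il2, a T cell cytokine, was well above background on all 6 arrays, with 7.90 to 8.03 in sEV-BAT and 8.00 to 8.21 in sEV-WAT on the quantile-normalized log2 scale (limma, adjusted p = 0.378).

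The Prdx2 spots were bright and close to each other on every array. Their mean intensity before normalization was 320, 426 and 374 scanner units in sEV-BAT 1, 2 and 3. It was 260, 235 and 214 in sEV-WAT 1, 2 and 3. The lowest sEV-BAT mean exceeded the highest sEV-WAT mean on this scale. The 30 sEV-BAT spots lay above the 30 sEV-WAT spots without overlap, from 306 to 454 against 198 to 272. The median probe was also apart on this scale, at 81.3 to 92.1 against 57.1 to 58.5 units. The share of all probes without overlap before normalization was not counted. The spots of 1 array had a coefficient of variation of 2.55% to 5.35%. All 60 Prdx2 spots were well above background by the scanner software's flag. So were most probes, 51589 to 56786 of 60823 on an array. The median signal of a Prdx2 spot was 16.2 to 28.8 times that of its local background. One spot on sEV-BAT 1 was marked as an outlier of its probe and was left out of the log2 means.

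The Gsta4 spots were near the background. Their mean intensity before normalization was 18.9, 12.03 and 17.7 scanner units in sEV-BAT 1, 2 and 3. It was 5.76, 7.21 and 8.57 in sEV-WAT 1, 2 and 3. Here too the array means did not overlap, with sEV-BAT higher on arrays that were brighter as a whole. Single spots overlapped, since sEV-BAT spots ran from 9.60 to 23.7 and sEV-WAT spots from 1.66 to 14.4. Of the 30 sEV-BAT spots, 20 lay above the highest sEV-WAT spot. The coefficient of variation among the spots of 1 array was 13.1% to 19.9% in sEV-BAT and 21.5% to 50.7% in sEV-WAT.

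Detection of Gsta4 differed in the same direction, as did that of all probes, of which 54759 to 56786 were well above background on a sEV-BAT array and 51589 to 52542 on a sEV-WAT array. The flag marked 10, 8 and 10 of 10 Gsta4 spots as well above background in sEV-BAT 1, 2 and 3, which is 28 of 30. It marked 1, 5 and 6 of 10 spots in sEV-WAT 1, 2 and 3, which is 12 of 30. Spots of 1 array are repeats of 1 sample, so no test was made over spots. With the less strict flag of a positive and significant signal, all 30 spots of both groups were detected. All 30 sEV-BAT spots and 29 of 30 sEV-WAT spots were brighter than the 95th percentile of the negative control spots on their array. The median signal of a Gsta4 spot was 2.27 to 2.91 times that of its local background in sEV-BAT and 1.78 to 2.12 times in sEV-WAT.

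**Figure D1:**
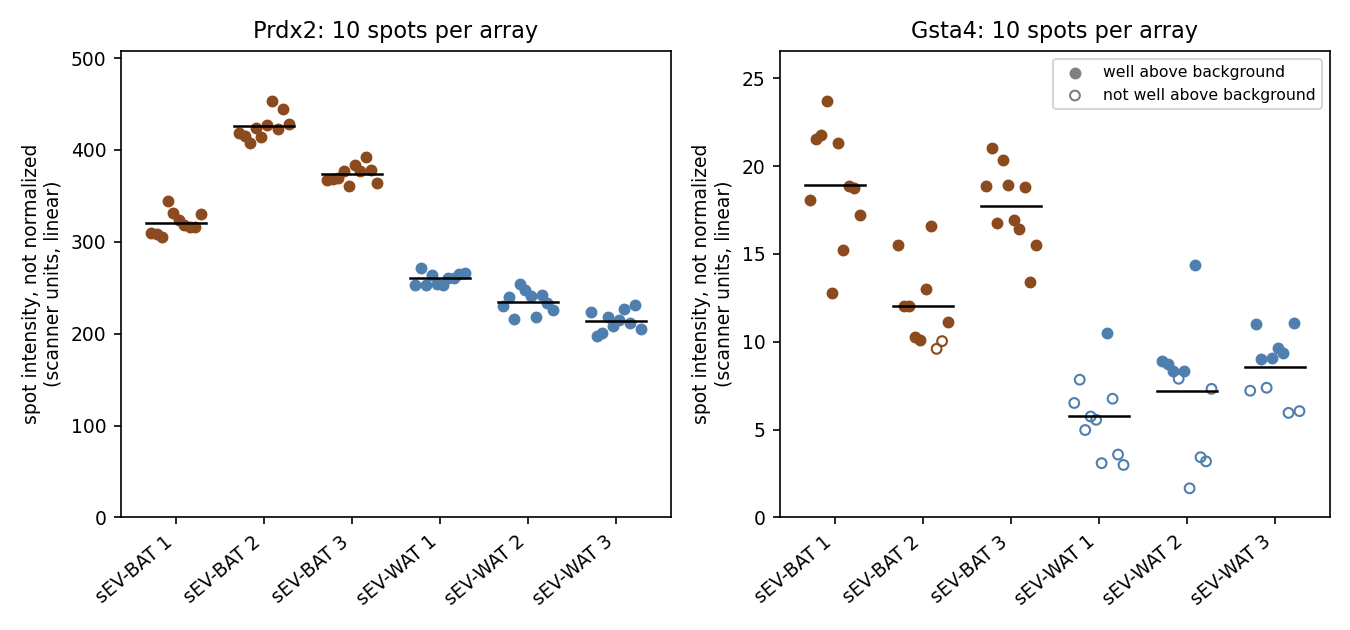
Intensity of the 10 spots of the Prdx2 probe (left) and of the Gsta4 probe (right) on each array, before normalization, on linear axes in scanner units that start at 0. Filled points are spots well above background, open points are spots that were not, brown is sEV-BAT, blue is sEV-WAT and a bar is the mean of an array. All Prdx2 spots are filled and the groups do not overlap, on sEV-BAT arrays that were brighter as a whole. Of the 30 Gsta4 spots in sEV-WAT, 18 are open.

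A probe was counted as well above background on an array where most of its spots were. Prdx2 met this on all 6 arrays, as did 49546 of the 60823 probes. Gsta4 met it on 3 of 3 sEV-BAT arrays and 1 of 3 sEV-WAT arrays, sEV-WAT 3, and it passed the filter of at least 3 of the 6 arrays through the sEV-BAT arrays, the group in which it was brighter. Its sEV-WAT values are therefore mostly those of signal that was not well above background.

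After quantile normalization, which gives every array the same distribution of values, the log2 intensity of Prdx2 was 8.06, 8.46 and 8.31 in sEV-BAT 1, 2 and 3. It was 8.17, 8.15 and 8.04 in sEV-WAT 1, 2 and 3. The groups overlapped, because sEV-BAT 1 lay between the sEV-WAT values while sEV-BAT 2 and 3 lay above all of them. Prdx2 averaged 8.28 ± 0.20 (SD, n = 3) over sEV-BAT against 8.12 ± 0.07 (SD, n = 3) over sEV-WAT. The 95% confidence interval of the log2 difference from limma ran from -0.15 to 0.47, or from 0.90-fold to 1.38-fold, and lies within the fold change limit of 2. An exact two-sided permutation test over the arrays gave p = 0.3, and with 3 arrays a group such a test cannot go below 0.1.

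The quantile-normalized log2 intensity of Gsta4 was 3.75, 3.26 and 3.43 in sEV-BAT 1, 2 and 3. It was 3.07, 3.23 and 3.42 in sEV-WAT 1, 2 and 3. The groups overlapped at sEV-BAT 2, which lay below sEV-WAT 3. Gsta4 averaged 3.48 ± 0.25 (SD, n = 3) over sEV-BAT against 3.24 ± 0.17 (SD, n = 3) over sEV-WAT. The 95% confidence interval of the log2 difference ran from -0.15 to 0.64, or from 0.90-fold to 1.55-fold (exact two-sided permutation test, p = 0.2). In vesicle RNA, fewer vesicles that carry a transcript and fewer copies in each vesicle cannot be told apart. Probes with 3 sEV-BAT values above all 3 sEV-WAT values, which neither gene was, made up 14.5% of those tested, and probes without overlap either way made up 36.3%.

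Quantile normalization keeps the order of the probes on an array, so the place of a probe in that order carries the same information as its normalized value. Prdx2 was brighter than 69.6%, 72.7% and 71.6% of the probes on sEV-BAT 1, 2 and 3, and brighter than 70.5%, 70.3% and 69.4% on sEV-WAT 1, 2 and 3. Gsta4 was brighter than 16.9%, 11.99% and 13.5% of the probes for sEV-BAT, and than 10.4%, 11.7% and 13.4% for sEV-WAT. For both genes 1 sEV-BAT array lay within the range of the sEV-WAT arrays, sEV-BAT 1 for Prdx2 and sEV-BAT 2 for Gsta4. These are positions of probes and not amounts of the 2 transcripts, since probes differ in how they bind.

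**Figure D2:**
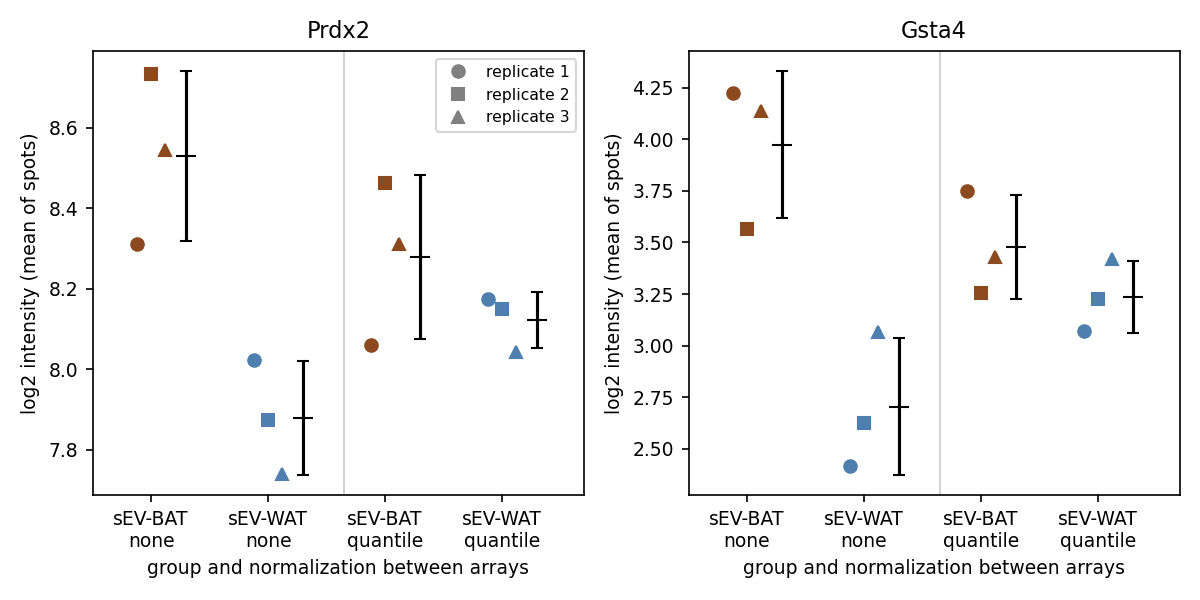
Log2 intensity of Prdx2 (left) and Gsta4 (right) on each array, before (none) and after quantile normalization between arrays, with brown for sEV-BAT, blue for sEV-WAT, a symbol for each replicate number, and the mean ± SD of 3 arrays beside them. The axes do not start at 0 and differ between the panels. The groups lie apart before normalization, when the sEV-BAT arrays were brighter as a whole. They overlap after it, at sEV-BAT 1 for Prdx2 and at sEV-BAT 2 for Gsta4.

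How much of the difference remained depended on the normalization, over a wider range for Gsta4 than for Prdx2. With no normalization between arrays, the log2 difference was 0.65 for Prdx2 and 1.27 for Gsta4 (limma, adjusted p = 0.0125 and adjusted p = 0.00717). An adjusted limma p of at most 0.05 was then reached by 35568 of the 54443 tested probes. Gsta4 passed the limits of the study there, as did 16.4% of the tested probes. It did so against sEV-WAT arrays of which 1 of 3 was well above background for it. The median difference over all tested probes was 0.62 in that setting, so Prdx2 lay 0.04 and Gsta4 lay 0.65 above it. Most of those probes were brighter than Gsta4, which differed by 0.24 under quantile normalization, where probes of equal rank share a value. When each array's 75th percentile was subtracted instead, the log2 difference was 0.16 for Prdx2 and 0.78 for Gsta4 (limma, adjusted p = 0.420 and adjusted p = 0.132), which is again 0.04 and 0.65 above the median of 0.13. Gsta4 had an unadjusted p of 0.0309 there and stayed under a fold change of 2. With normexp background correction of the median spot signals, which changed both the signal used and its correction and added an offset of 50, the difference of Gsta4 was 0.03 and that of Prdx2 was 0.13. Of all probes called at the limits of the study, 49.0% were higher in sEV-BAT with quantile normalization, 79.9% with the 75th percentile and 99.5% with none.

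On the slide that both groups shared, sEV-BAT 1 minus the mean of the 3 sEV-WAT arrays was -0.062 for Prdx2 and 0.51 for Gsta4 on the quantile-normalized log2 scale. A fit with slide as a block gave the same values (limma, adjusted p = 0.876 and adjusted p = 0.405). There 1 sEV-BAT array carries the comparison, and it was assumed to vary like the other arrays, which gave the spread. On this scale Prdx2 was higher in sEV-BAT only where the arrays of the second slide entered, and Gsta4 was highest on sEV-BAT 1. The second slide held sEV-BAT arrays alone, so slide and sample cannot be told apart there.

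Whether the genes differed between the groups by unequal amounts was tested on the Prdx2 value minus the Gsta4 value within each array. The difference between the groups in this value was -0.084 on the quantile-normalized log2 scale (exact two-sided permutation test, p = 0.8). It was -0.62 without normalization and with the 75th percentile, where a shift of a whole array cancels (exact two-sided permutation test, p = 0.2), and its sign turned with normexp on the median signals, as it did when the median of the spots was taken. With 3 arrays a group this test cannot go below 0.1, so it could not have passed 0.05 whatever the values.

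Leaving out each array in turn kept both differences above 0 and below the limits of the study. Prdx2 ran from 0.063 without sEV-BAT 2 to 0.27 without sEV-BAT 1. Gsta4 ran from 0.11 without sEV-BAT 1 to 0.36 without sEV-BAT 2, so the same arrays moved the genes in opposite directions. Spots in the upper and in the lower part of the array gave 0.13 and 0.17 for Prdx2. They gave 0.11 and 0.35 for Gsta4, and the median of its spots gave 0.075 in place of the mean's 0.24. The standard error of the mean of 10 spots on an array, on the log2 scale, was 0.012 to 0.025 for Prdx2 and 0.062 to 0.29 for Gsta4. For Prdx2 it was below the SD between quantile-normalized arrays, 0.20 in sEV-BAT and 0.07 in sEV-WAT. The SD between single Prdx2 spots of an array was 0.037 to 0.047 in sEV-BAT. In sEV-WAT it was 0.037 to 0.078, about as large as the SD between arrays.

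**Figure D3:**
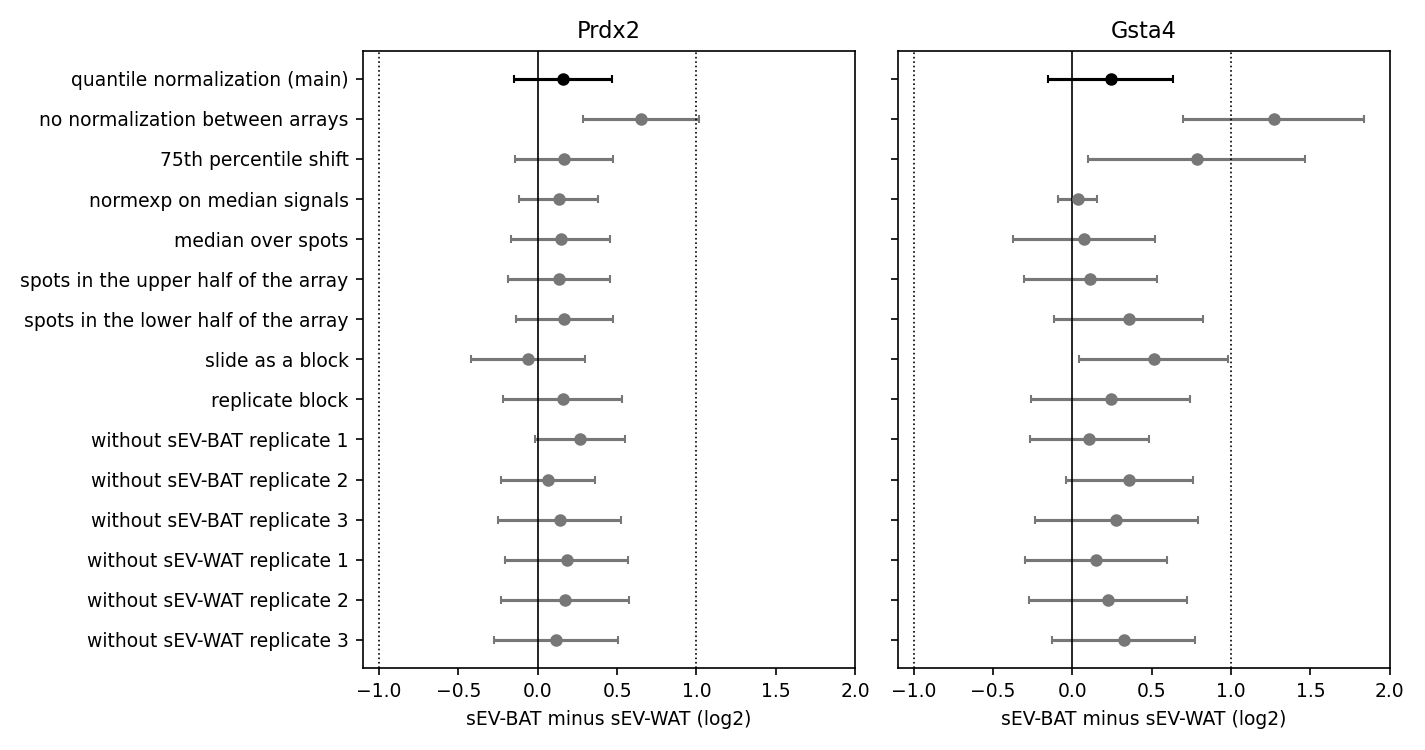
Log2 difference, sEV-BAT minus sEV-WAT, of Prdx2 (left) and Gsta4 (right) under quantile normalization (black) and under 14 other settings (grey), of which 6 leave out 1 array each, with 95% confidence intervals from limma. The solid line is 0 and the dotted lines are a fold change of 2. Prdx2 stays between -0.062 and 0.65, and Gsta4 moves from 0.03 with normexp on the median signals to 1.27 with no normalization, the only point beyond a dotted line.

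Few named genes were compared. Of 44 genes on an antioxidant list, Prdx2 and Gsta4 alone were among the replicated Agilent probes that RefSeq names. The list held peroxiredoxins, glutathione transferases and peroxidases, enzymes of glutathione synthesis, catalase and superoxide dismutases. It also held the thioredoxin system, the Nrf2 pathway and enzymes that clear lipid aldehydes. The other probes were not searched for the remaining 42 genes, so no count over the pathway is given. Of the 2 genes found, 0 passed the limits in either direction. Of the 46 gene-named probes with 10 spots, 43 were tested. Their median log2 difference was 0.19, against -0.018 over all 54443 probes. Prdx2 ranked 25 and Gsta4 ranked 19 of 43 from the highest difference, and 30.6% and 23.1% of all tested probes had a higher one. Among the 43 probes, 2 passed the limits of the study, both higher in sEV-BAT, and 19 had an unadjusted limma p of at most 0.05, against 28.8% of all tested probes.

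**Figure D4:**
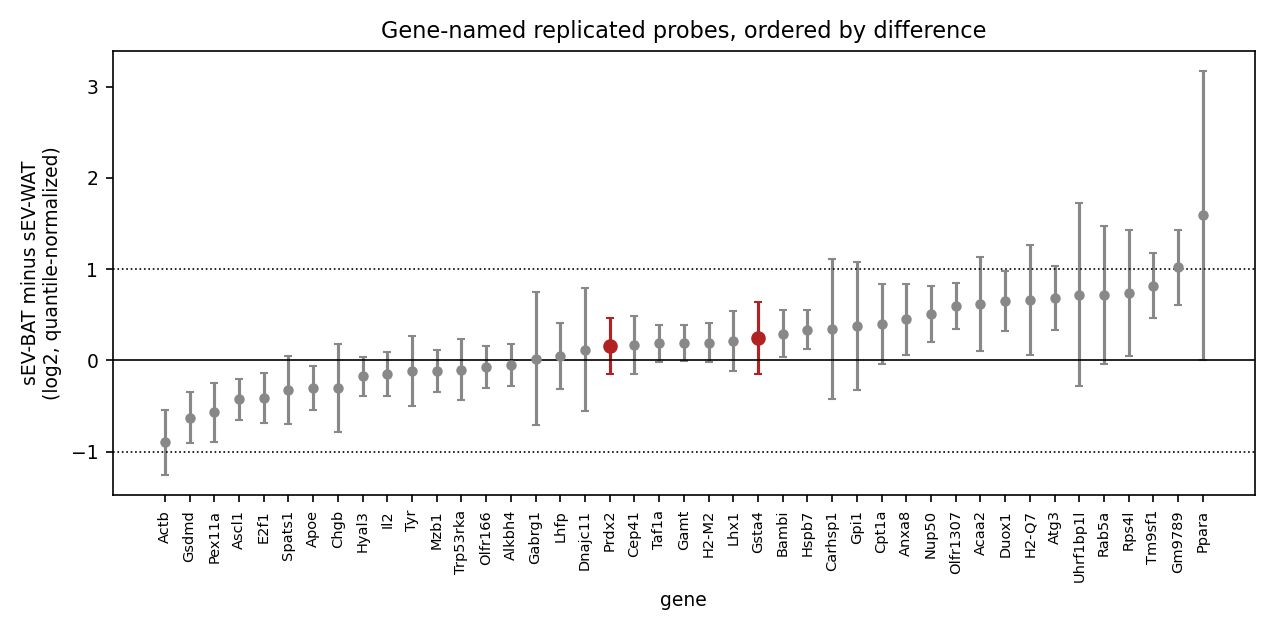
Log2 difference, sEV-BAT minus sEV-WAT, of the 43 gene-named replicated probes on the quantile-normalized scale, ordered by size, with 95% confidence intervals from limma. Prdx2 and Gsta4 are in red, the solid line is 0 and the dotted lines are a fold change of 2. Both genes lie near the middle of the order and their intervals include 0.

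The genes with profiles nearest to each member over the 6 arrays were found by the root mean square difference of quantile-normalized log2 values, after the mean of each gene was taken out. Nearest to Prdx2 were Lhx1 (a LIM homeobox transcription factor), Gamt (an enzyme of creatine synthesis) and Bambi (a decoy receptor of TGF-beta signalling), at 0.074, 0.11 and 0.11. The SD of Prdx2 itself over the arrays was 0.16. Lhx1 shared its high value on sEV-BAT 2, with 11.89, 12.26 and 11.96 for sEV-BAT against 11.95, 11.82 and 11.69 for sEV-WAT. Nearest to Gsta4 were Taf1a (a subunit of the RNA polymerase I initiation complex), Hspb7 (a small heat shock protein) and Cep41 (a centrosomal protein), at 0.16, 0.17 and 0.18, against its own SD of 0.23. Prdx2 and Gsta4 were 0.30 apart, which put Gsta4 at place 27 among the 42 other genes for Prdx2 and Prdx2 at place 15 for Gsta4. The arrays share brightness and slide, and no test was made on these distances.

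The RefSeq gene table of the assembly GRCm38 lists 2 transcripts of Prdx2 and 1 of Gsta4, and it names 2 pseudogenes of Prdx2, Prdx2-ps1 and Prdx2-ps2. Whether RNA of those copies binds the Prdx2 probe, or RNA of the related alpha class glutathione transferases the Gsta4 probe, was not tested. The table's coordinates are not given because the files carry another build.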

How the data were processed

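Each array, an Arraystar Mouse LncRNA Array V4, carried Cy3-labelled total RNA of 1 sample. The authors deposited, for each array, spot intensities from Agilent Feature Extraction 11.0.1.1, background-subtracted and not normalized between arrays, with detection and outlier flags. They also deposited log2 values that GeneSpring GX had quantile-normalized, which hold none of the 182 replicated probes and so 0 of the 2 genes. Here log2 values were taken, outlier spots left out, spots of a probe averaged and quantile normalization applied (R 4.3.3, limma 3.58.1). A probe entered limma's linear model if most of its spots were well above background on 3 or more of the 6 arrays, and p-values for sEV-BAT against sEV-WAT were adjusted by Benjamini-Hochberg. The fit was tested on simulated data. Other work used Python 3.11.15 and scipy 1.17.1.

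The members and gene lists were chosen with earlier results of these data known. Named genes are the members, listed genes among the 50 replicated Agilent probes, of which RefSeq named 46, and the 3 nearest profiles of each member. Sequences of the probes and coordinates were not used. The number of arrays limits the precision. The p-values measure the spread between arrays, in which pool, slide and array handling cannot be told apart. Alternatives changed the normalization, background correction, filter, spots, block and test, and left out each array.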

Additional observations from a re-analysis of the deposited data

How the results depend on the processing

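Of 20 alternatives for Prdx2, 19 left its direction and its call as they were, and slide as a block turned the log2 difference to -0.062. Of 19 for Gsta4, 18 left its direction and that call as they were. With no normalization between arrays its difference was 1.27 and passed the limits of the study, as did 16.4% of the tested probes. Gsta4 did not pass the filter of all 6 arrays and has no value there. Raising the arrays where a probe was dim to the lowest signal well above background, chosen after seeing the data, brought Gsta4 to 0.084. Dropping 1 array at a time, Prdx2 ran from 0.063 to 0.27 and Gsta4 from 0.11 to 0.36. The mean count of Gsta4 spots well above background was 5.33 higher in sEV-BAT, and 0 higher with the flag of a positive and significant signal.

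The difference between Prdx2 and Gsta4 was -0.084, and it turned to 0.098 with normexp on the median spot signals, 0.071 with the median over spots, 0.021 with spots of the upper part of the array and 0.072 with dim arrays raised. Dropping 1 array at a time gave -0.29 to 0.16, above 0 without sEV-BAT 1 or sEV-WAT 1. The cause of these changes was not tested.

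Over all probes, 1235 passed the limits of the study. The number was 8930 without normalization, 1884 with the 75th percentile, 526 with normexp on the median spot signals and 641 with slide as a block, with 99.5%, 79.9%, 35.9% and 33.4% of them higher in sEV-BAT. Dropping 1 array at a time gave 728 to 2412, the lowest without sEV-BAT 3, and 1987 without sEV-BAT 1 and 2412 without sEV-BAT 2. At an adjusted limma p of at most 0.05, 4141 probes passed, or 0 without sEV-BAT 3 or with 1 sEV-WAT array dropped, where 11286 to 13752 had an unadjusted p of at most 0.05, and 62 with the methods' t-test. It was 0 with slide as a block and 0 with the replicate number as a block, where 6405 and 12499 had an unadjusted p of at most 0.05. The replicate number as a block left the differences at 0.16 and 0.24 (limma, adjusted p = 0.530 and adjusted p = 0.468), with 1283 probes past the limits. The check of same-numbered arrays, by the correlation of their deviations across probes, gave -0.25, -0.086 and 0.22. With 3 arrays a group it cannot settle whether same-numbered arrays share mice. The methods do not say which arrays do, so the numbers were not taken as pairs in the main fit. Low signal limits Gsta4, which was well above background on 1 of 3 sEV-WAT arrays.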
